A study of Mus musculus with 8 samples.

Results

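The genes that activate fatty acids and break them down by beta-oxidation were followed in mouse macrophages under 2 opposed stimuli. The set was given as 30 gene symbols covering acyl-CoA synthetases, the carnitine shuttle, and mitochondrial and peroxisomal oxidation. Of these, 28 were found by symbol among the 20258 rows of the deposited table that carry a symbol. The other two, Eci1 and Eci2, are listed there under their older symbols, Dci and Peci; they were matched by RefSeq accession, are described separately and enter no count below.

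Macrophages differentiated from the bone marrow of C57BL/6 mice were kept for 24 h with LPS plus IFNg (3 libraries), with IL4 (3 libraries) or with no stimulus (2 libraries). LPS, a bacterial cell wall component, and interferon gamma together drive an inflammatory state, and IL4 drives the state called alternative activation. All cells were wild type and received no other agent that the labels name. The RNA was sequenced from the 3′ ends of polyadenylated transcripts, and expression is given on the log2 scale of the authors' quantile-normalised table.

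A fatty acid is first joined to coenzyme A by an acyl-CoA synthetase, which traps it in the cell and directs it to oxidation, to membrane lipids or to storage. Long-chain acyl groups then enter mitochondria as carnitine esters, and a repeating cycle of dehydrogenation, hydration, a second dehydrogenation and thiolysis releases acetyl-CoA while electrons pass through the electron transfer flavoprotein to the respiratory chain. Macrophages given IL4 are known for relying on mitochondrial oxidation and those given LPS plus IFNg for glycolysis.

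Acsl1 rose steeply with LPS plus IFNg. In LPS plus IFNg against unstimulated macrophages, 1 of 28 members rose and 1 fell, beside 3.72% and 4.25% of all genes. Against IL4, 2 rose and 3 fell, beside 5.91% and 6.96%. Etfa fell in LPS plus IFNg macrophages against both other groups, though the call against unstimulated was lost without either unstimulated library and neither fall passed when libraries were levelled on ribosomal protein genes. Cpt1a was higher, and Acat1 and Hsd17b4 were lower, in LPS plus IFNg than in IL4 macrophages, though the Hsd17b4 call was lost without any of 7 single libraries. Under the same ribosomal levelling neither Acat1 nor Hsd17b4 passed (adjusted p = 0.292 and 0.354 by limma). No member passed the test between IL4 and unstimulated macrophages. A member passed, here and below, at a limma adjusted p under 0.05, with the adjustment over the 13615 genes tested in each comparison.

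Of the 5 members that passed, 3 (Acsl1, Cpt1a and Etfa) are shown with 300-base windows around their RefSeq transcript starts, because these are the stretches of DNA at the starts of genes whose RNA differed; those of Acat1 and Hsd17b4 were not used here. Each runs 5′ to 3′ on the gene's own strand, from 250 bases before the start to 50 after it, in GRCm38.p6 coordinates from RefSeq. Acsl1 has 2 annotated starts, and 3′ end reads do not say which of them was used. Capitals mark matches to the motifs described after the sequences.
Acsl1, first start, chr8:46470787-46471086, plus strand: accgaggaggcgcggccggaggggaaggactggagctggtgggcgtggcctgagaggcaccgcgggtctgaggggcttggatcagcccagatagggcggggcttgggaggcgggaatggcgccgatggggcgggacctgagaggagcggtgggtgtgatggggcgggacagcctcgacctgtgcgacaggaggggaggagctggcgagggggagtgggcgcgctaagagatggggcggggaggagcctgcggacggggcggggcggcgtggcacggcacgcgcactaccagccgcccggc
Acsl1, second start, chr8:46490716-46491015, plus strand: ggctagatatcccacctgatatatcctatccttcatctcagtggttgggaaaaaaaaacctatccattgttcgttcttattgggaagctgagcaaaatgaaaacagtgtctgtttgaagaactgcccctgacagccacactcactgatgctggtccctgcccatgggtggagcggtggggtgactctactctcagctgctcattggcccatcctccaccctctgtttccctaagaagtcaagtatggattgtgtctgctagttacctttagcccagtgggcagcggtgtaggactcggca
Cpt1a, chr19:3323051-3323350, plus strand: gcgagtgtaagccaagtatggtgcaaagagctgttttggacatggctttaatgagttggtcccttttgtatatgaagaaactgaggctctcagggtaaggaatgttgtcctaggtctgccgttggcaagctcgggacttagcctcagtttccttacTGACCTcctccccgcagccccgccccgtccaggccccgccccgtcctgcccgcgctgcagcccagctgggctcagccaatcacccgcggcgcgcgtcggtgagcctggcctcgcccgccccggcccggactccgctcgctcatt
Etfa, chr9:55512194-55512493, minus strand: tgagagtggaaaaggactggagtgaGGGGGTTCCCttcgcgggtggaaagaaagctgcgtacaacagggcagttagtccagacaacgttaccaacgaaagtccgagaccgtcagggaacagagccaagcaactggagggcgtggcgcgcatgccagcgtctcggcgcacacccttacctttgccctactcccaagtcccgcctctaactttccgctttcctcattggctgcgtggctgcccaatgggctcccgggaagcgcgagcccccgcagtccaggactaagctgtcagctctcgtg

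The first Acsl1 window had a GC content of 74.0% with 30 CpG dinucleotides, and the second had 50% with 4. The Cpt1a window had 62.3% GC and 22 CpG, and the Etfa window 60.3% GC and 21 CpG. Over the 24 windows found for 23 of the 28 members, the median GC content was 59.5%, against 52.7% over all 32851 windows of the table.

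A set of 6 motifs was searched on both strands. The nuclear receptor half-site AGGTCA, the core of the elements that PPAR and related receptors bind, was found in the windows of Acadm, Acadvl, Cpt1a and Echs1, and in 16.3% of all windows. Its direct repeat with a 1-base spacer, AGGTCANAGGTCA, was in 0 of the member windows and in 0.04% of all windows. The element TCAAGGTCA, which contains the half-site and is known from estrogen-related receptors, was in 0 of the member windows and in 0.423% of all. The STAT element TTCNNNGAA was found for Cpt2, Hadha and Hadhb, and in 8.3% of all windows. Hadha and Hadhb lie head to head on chromosome 5, and their windows overlap by 228 bases. The interferon element GAAANNGAAA was found for Hsd17b10, and in 3.44% of all windows. The 10-base NF-kB consensus was found for Etfa, and in 8.46% of all windows. The Cpt1a and Etfa matches are the capitals above, and neither Acsl1 window held any of the 6 motifs.

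The stimuli left their known marks. Nos2, the inducible nitric oxide synthase, was at 10.06 to 10.43 in LPS plus IFNg macrophages and listed at 0 in the other 5 libraries. Arg1, the arginase of alternative activation, was at 7.57 to 7.80 in LPS plus IFNg, 13.41 to 13.69 in IL4, and 2.31 and 4.19 in unstimulated macrophages, and it also rose with LPS plus IFNg against unstimulated (log2 change 4.4, adjusted p = 0.00287 by limma). All 8 macrophage markers were present, with summed levels of 13.66 to 13.75 on the log2 scale in LPS plus IFNg, 13.2 to 13.78 in IL4 and 14.26 to 14.34 in unstimulated macrophages. By limma 0 of these markers rose and 4 fell in IL4 against unstimulated, beside 0.514% and 0.793% of all genes. With LPS plus IFNg 1 rose and 2 fell against unstimulated, beside 3.72% and 4.25%. Against IL4, 3 rose and 0 fell, beside 5.91% and 6.96%. The depth of the libraries is unknown, since log2 values keep no read counts, and 8219 to 10210 rows per library were listed at exactly 0. Separate animals or cultures are not named for the replicates in the labels; a p-value therefore reflects sample-to-sample spread alone, and that spread may be technical.

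Among the members, 24 were above 0 in all 8 libraries, and 4 (Acadvl, Etfdh, Acads and Hsd17b10) were listed at 0 in at least 1. Their mean level was at least 5 for 23 members and under 5 for the other 5. The median over the 28 members in each library was 6.52, 6.77 and 6.74 in LPS plus IFNg, 7.22, 6.70 and 6.88 in IL4, and 7.11 and 6.81 in unstimulated macrophages. These ranges overlapped between IL4 and each of the other groups, and the 3 LPS plus IFNg medians lay below both unstimulated ones.

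**Figure D1:**
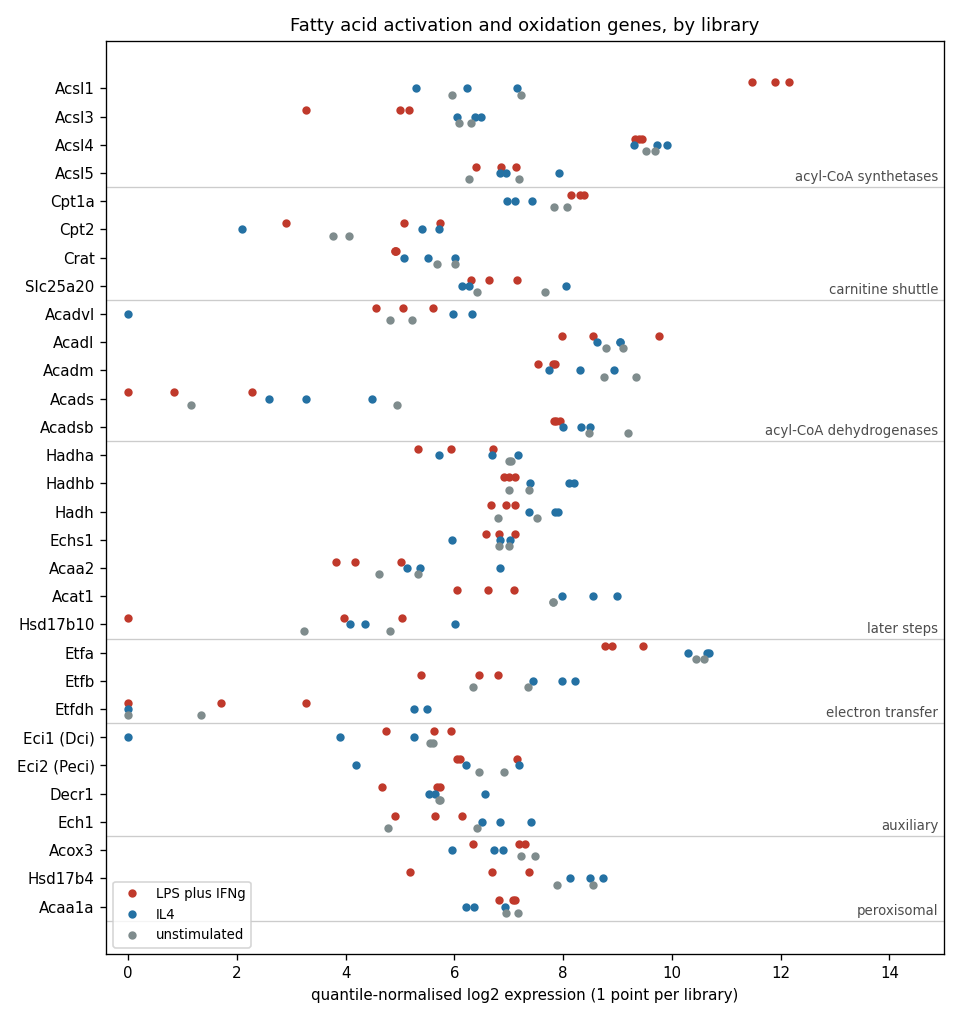
Log2 expression (horizontal axis) of each member (rows, ordered by role), as deposited by the authors. Points are the 8 libraries, coloured by group, with LPS plus IFNg, IL4 and unstimulated from top to bottom within each row. Acsl1 stands out, at 11.47 to 12.16 in the LPS plus IFNg libraries and at 5.30 to 7.23 in the others.

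Between LPS plus IFNg and unstimulated macrophages, 1 of 28 members rose (Acsl1) and 1 fell (Etfa), while 3.72% of all genes tested rose and 4.25% fell. The median log2 change was -0.36 over the members, with 22 of 28 below 0, and -0.04 over all genes. Without regard to the test, the libraries of the groups did not overlap for 2 members that were higher and 9 that were lower with LPS plus IFNg; the same held for 16.1% and 20.7% of all genes. Among genes with a mean of at least 5, which members mostly are, 27.4% lay lower without overlap, as did 9 of the 23 such members.

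Between LPS plus IFNg and IL4 macrophages, 2 of 28 members rose (Acsl1 and Cpt1a) and 3 fell (Etfa, Acat1 and Hsd17b4), beside 5.91% and 6.96% of all genes. The median log2 change was -0.58 over the members, with 21 of 28 below 0, and 0 over all genes. The libraries did not overlap for 2 members that were higher and 12 that were lower, against 12.4% and 14.8% of all genes. Among genes with a mean of at least 5 the lower share was 21.3%, and 11 of 23 members lay there.

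Between IL4 and unstimulated macrophages, 0 of 28 members rose and 0 fell by limma, beside 0.514% and 0.793% of all genes. At an unadjusted p under 0.05, 1 member (Cpt1a) differed, beside 12.1% of all genes; the same count was 7 members, beside 19.4%, for LPS plus IFNg against unstimulated and 10, beside 25.5%, against IL4. The median log2 change was 0.08 over the members, with 16 above 0 and 12 below, and -0.01 over all genes. The libraries did not overlap for 4 members that were higher and 3 that were lower, against 11.7% and 14.7% of all genes. The comparisons with LPS plus IFNg share its libraries, and those with the unstimulated group share its 2, so they are not independent of each other.

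The direction of a small difference depended on how the libraries were levelled. Setting the libraries to equal means of 11 housekeeping genes moved the median of all genes by 0.32 upward for LPS plus IFNg against unstimulated and by 0.25 against IL4, and all-gene calls then numbered 682 higher and 391 lower, in place of 506 and 579, in the first of these. Against IL4 the split became 1039 higher and 701 lower, in place of 804 and 948. Levelling on 82 ribosomal protein genes, of which 58 of the 81 tested themselves fell with LPS plus IFNg against unstimulated, moved the medians by 1.45, and the members' medians turned to 1.09 against unstimulated and 0.88 against IL4. The rise of Acsl1 and the higher Cpt1a against IL4 passed under both levellings; the values of the other called members are given beside them.

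**Figure D2:**
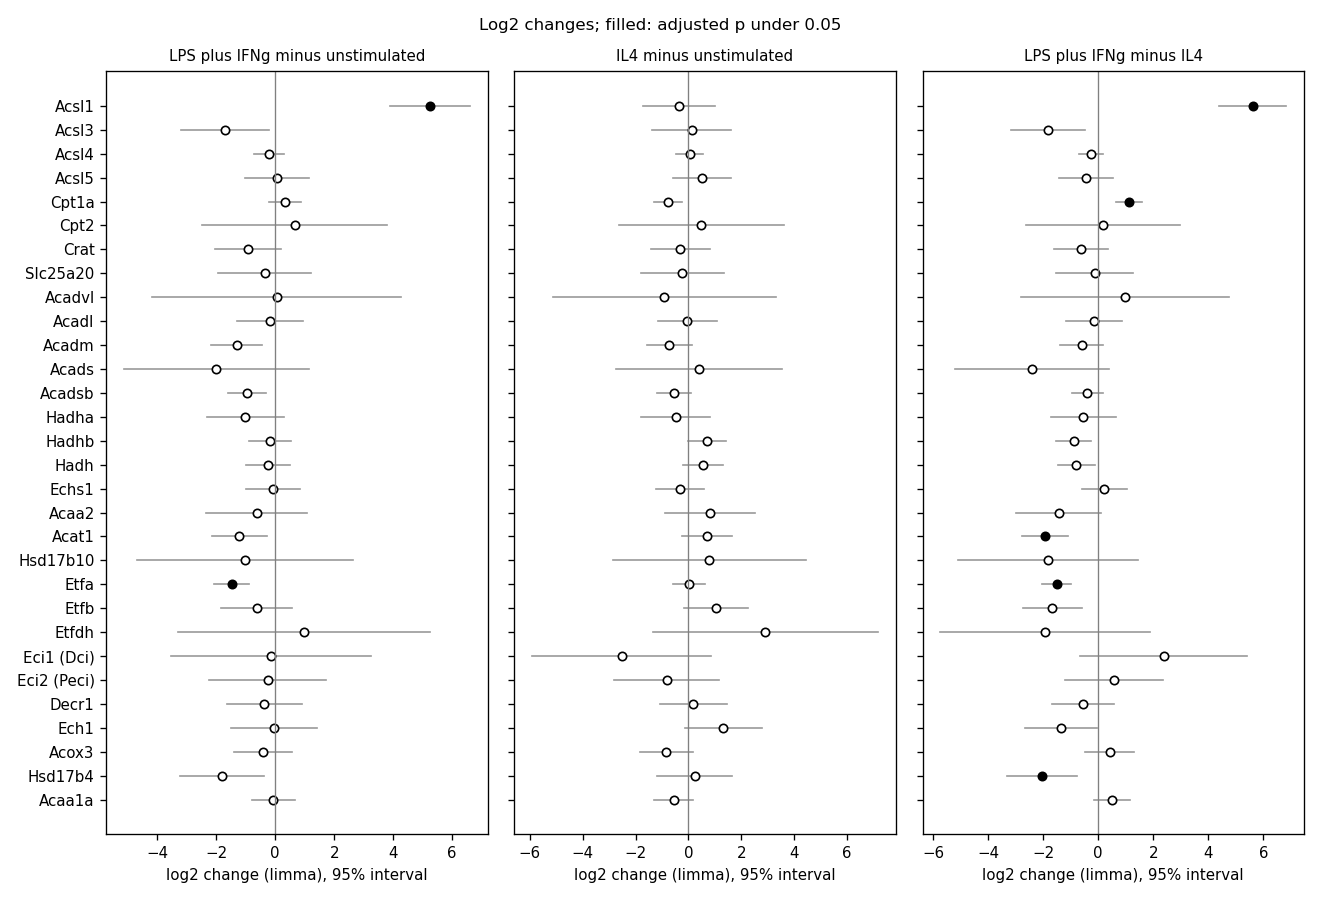
Log2 differences with 95% intervals (limma, all 8 libraries) for each member in the 3 comparisons, LPS plus IFNg minus unstimulated, IL4 minus unstimulated and LPS plus IFNg minus IL4; filled points passed at an adjusted p under 0.05. Acsl1 lies at 5.25 and 5.62 in the comparisons with LPS plus IFNg, and no member passed for IL4 minus unstimulated.

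The acyl-CoA synthetases did not move as a group. Acsl1, a long-chain synthetase of the outer mitochondrial membrane and endoplasmic reticulum, stood at 11.47, 11.90 and 12.16 in LPS plus IFNg, 5.30, 6.23 and 7.15 in IL4, and 7.23 and 5.95 in unstimulated macrophages. The lowest LPS plus IFNg library lay more than 4 log2 units above the highest of the rest, while the IL4 and unstimulated libraries overlapped. Acsl1 rose by a log2 change of 5.25 ± 0.58 (SE; adjusted p = 0.00295 by limma) against unstimulated, or 38.1-fold with a 95% interval of 14.8 to 98.3. Against IL4 it rose by 5.62 ± 0.52 (adjusted p = 0.000821 by limma), or 49.1-fold with an interval of 21.1 to 115. Both calls held without any single library and under all 11 other settings tried.

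Acsl3, which is known from lipid droplets, was at 3.27, 5.17 and 5.01 in LPS plus IFNg, 6.05, 6.37 and 6.50 in IL4, and 6.30 and 6.08 in unstimulated macrophages. All 3 LPS plus IFNg libraries were the lowest, with no overlap, yet the log2 difference of -1.71 ± 0.64 (SE) against unstimulated did not pass (adjusted p = 0.193 by limma). Against IL4 it was -1.82 ± 0.57 (adjusted p = 0.0886 by limma).

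Acsl4, the synthetase that prefers arachidonic acid, was at 9.39, 9.33 and 9.45 in LPS plus IFNg, 9.30, 9.90 and 9.72 in IL4, and 9.52 and 9.68 in unstimulated macrophages. Its LPS plus IFNg minus unstimulated difference was -0.21, with a 95% interval of -0.70 to 0.29. Acsl5 was at 7.14, 6.86 and 6.39 in LPS plus IFNg, 7.93, 6.96 and 6.84 in IL4, and 6.27 and 7.19 in unstimulated macrophages, with overlap between all groups. Its difference of 0.06 against unstimulated had an interval of -1.02 to 1.15. The Acsl4 difference turned to 0.11 under the housekeeping levelling, and that of Acsl5 to -0.40 without unstimulated replicate 1.

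**Figure D3:**
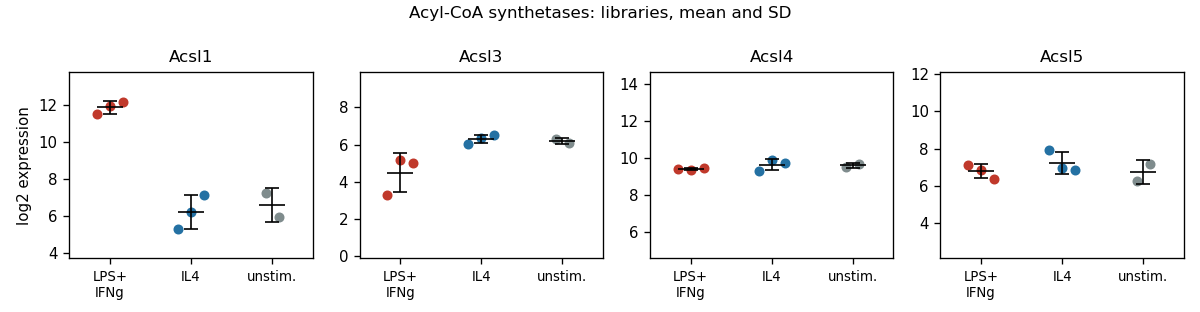
Log2 expression of the acyl-CoA synthetases by group (LPS plus IFNg, IL4, unstimulated from left to right); points are libraries, and bars are the mean and SD (n = 3, 3 and 2). The 3 LPS plus IFNg libraries lie above all others for Acsl1 and below all others for Acsl3. Each panel's axis spans 10 log2 units.

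Of the carnitine shuttle genes, 1 of 4 passed in any comparison, while 0.514% to 6.96% of all genes passed per comparison and direction. Cpt1a, the outer membrane carnitine palmitoyltransferase that controls entry of long-chain fatty acids, was at 8.15, 8.38 and 8.30 in LPS plus IFNg, 7.43, 7.12 and 6.97 in IL4, and 7.83 and 8.07 in unstimulated macrophages. The groups lay in 3 bands without overlap, LPS plus IFNg highest and IL4 lowest. Cpt1a was higher in LPS plus IFNg than in IL4 by a log2 change of 1.11 ± 0.20 (SE; adjusted p = 0.0123 by limma), or 2.15-fold with a 95% interval of 1.55 to 2.99. Against unstimulated, the LPS plus IFNg difference was 0.33 ± 0.23 (adjusted p = 0.505 by limma) and the IL4 difference -0.78 ± 0.23 (unadjusted p = 0.0102, adjusted p = 0.198 by limma). The rise against IL4 held without any single library, with adjusted p-values up to 0.0491. At a threshold of 0.01 it did not pass.

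Cpt2, the inner membrane counterpart, overlapped between all groups, at 2.91, 5.08 and 5.74 in LPS plus IFNg, 2.10, 5.41 and 5.72 in IL4, and 3.77 and 4.06 in unstimulated macrophages. Slc25a20, the carnitine-acylcarnitine carrier, was at 6.30, 7.15 and 6.63 in LPS plus IFNg, 8.06, 6.14 and 6.27 in IL4, and 7.67 and 6.42 in unstimulated macrophages. Its ranges overlapped in all comparisons. Crat, which makes acetylcarnitine from acetyl-CoA, was at 4.92, 4.90 and 4.90 in LPS plus IFNg, 6.01, 5.51 and 5.08 in IL4, and 5.68 and 6.01 in unstimulated macrophages. The LPS plus IFNg libraries were the lowest without overlap, with a difference of -0.94 ± 0.48 (SE) against unstimulated that did not pass (adjusted p = 0.345 by limma) and turned to 0.51 under the ribosomal levelling.

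None of the 5 acyl-CoA dehydrogenases, which carry out the first step of the cycle on chains of different length, passed in any comparison. Over all genes, 0.514% to 6.96% passed per comparison and direction, so this count does not set the 5 genes apart. Acadm, the medium-chain enzyme, was at 7.53, 7.85 and 7.81 in LPS plus IFNg, 8.94, 8.31 and 7.73 in IL4, and 8.75 and 9.34 in unstimulated macrophages. Its LPS plus IFNg libraries lay below both unstimulated ones and overlapped with IL4. The difference against unstimulated was -1.31 ± 0.37 (SE; adjusted p = 0.0836 by limma), and it passed when genes with low values were left out (adjusted p = 0.0311 with means under 5 left out and 0.0367 with the lowest 0.25 of genes left out). It also passed without IL4 replicate 3 (adjusted p = 0.0458), and it turned to 0.14 under the ribosomal levelling.

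Acadsb, the short and branched chain enzyme that acts on isoleucine products, was at 7.83, 7.86 and 7.95 in LPS plus IFNg, 7.99, 8.5 and 8.34 in IL4, and 8.47 and 9.20 in unstimulated macrophages. The LPS plus IFNg libraries were the lowest without overlap. The difference against unstimulated was -0.95 ± 0.27 (SE; adjusted p = 0.0875 by limma); it passed without unstimulated replicate 1 (adjusted p = 0.0446) and turned to 0.50 under the ribosomal levelling.

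Acadl, the long-chain enzyme, was at 7.97, 8.55 and 9.76 in LPS plus IFNg, 9.04, 9.04 and 8.63 in IL4, and 8.79 and 9.10 in unstimulated macrophages. Its LPS plus IFNg libraries spanned both other groups. Acadvl, the very long chain enzyme, was at 5.05, 4.56 and 5.60 in LPS plus IFNg, 6.32, 0 and 5.98 in IL4, and 5.23 and 4.82 in unstimulated macrophages, with overlap throughout. Acads, the short-chain enzyme, was at 0.85, 2.28 and 0 in LPS plus IFNg, 2.6, 4.48 and 3.28 in IL4, and 4.95 and 1.15 in unstimulated macrophages. It had the largest difference among the dehydrogenases, -2.41 ± 1.20 (SE) against IL4 without overlap, which did not pass at these low levels (adjusted p = 0.268 by limma).

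Among the 7 genes for the remaining steps of the mitochondrial cycle, 0 passed against unstimulated macrophages with either stimulus. Over all genes, 3.72% rose and 4.25% fell with LPS plus IFNg, and 0.514% and 0.793% with IL4. In LPS plus IFNg against IL4 macrophages 0 of the 7 rose and 1 fell, beside 5.91% and 6.96% of all genes. That gene was Acat1, the mitochondrial acetoacetyl-CoA thiolase of ketone body and isoleucine metabolism, at 6.62, 6.05 and 7.10 in LPS plus IFNg, 8.56, 9.0 and 7.99 in IL4, and 7.81 and 7.81 in unstimulated macrophages. The groups lay in 3 bands without overlap, with IL4 highest and LPS plus IFNg lowest. In log2 terms Acat1 fell by 1.93 ± 0.35 (SE; adjusted p = 0.0126 by limma), which is 3.80-fold lower with a 95% interval of 2.14 to 6.76. Against unstimulated, the LPS plus IFNg difference was -1.22 ± 0.40 (adjusted p = 0.128 by limma), turning to 0.23 under the ribosomal levelling, and the IL4 difference 0.70 ± 0.40 (adjusted p = 0.532 by limma). The fall held without any single library (adjusted p up to 0.0459) and under the housekeeping levelling (-1.68), and it was -0.47 and did not pass under the ribosomal levelling (adjusted p = 0.292).

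Hadha and Hadhb encode the subunits of the trifunctional protein, which carries out the last 3 steps on long chains. Hadha was at 5.94, 6.72 and 5.33 in LPS plus IFNg, 6.70, 5.72 and 7.18 in IL4, and 7.04 and 7.0 in unstimulated macrophages. Hadhb was at 6.91, 7.0 and 7.12 in LPS plus IFNg, 8.20, 7.39 and 8.11 in IL4, and 7.01 and 7.38 in unstimulated macrophages. The LPS plus IFNg libraries were below both unstimulated ones for Hadha and below all IL4 ones for Hadhb, and none of these differences passed. For Hadhb, LPS plus IFNg minus IL4 was -0.89 ± 0.27 (SE; adjusted p = 0.0831 by limma), turning to 0.56 under the ribosomal levelling.

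Hadh, the dehydrogenase for shorter chains, was at 6.68, 7.12 and 6.94 in LPS plus IFNg, 7.85, 7.37 and 7.90 in IL4, and 7.51 and 6.80 in unstimulated macrophages. Echs1, the short-chain hydratase, was at 6.58, 6.81 and 7.11 in LPS plus IFNg, 7.03, 6.84 and 5.95 in IL4, and 7.0 and 6.83 in unstimulated macrophages. Hadh was lower in LPS plus IFNg than in IL4 without overlap and did not pass, whereas Echs1 overlapped everywhere. Acaa2, the mitochondrial thiolase, was at 4.18, 5.01 and 3.83 in LPS plus IFNg, 6.84, 5.14 and 5.36 in IL4, and 4.61 and 5.33 in unstimulated macrophages. Its difference of -1.44 ± 0.65 (SE) against IL4 did not pass, though the libraries did not overlap (adjusted p = 0.222 by limma), and it was 0.0114 under the ribosomal levelling. Hsd17b10, a dehydrogenase of branched chain and steroid substrates, was at 3.98, 0 and 5.04 in LPS plus IFNg, 6.01, 4.09 and 4.36 in IL4, and 3.23 and 4.82 in unstimulated macrophages.

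**Figure D4:**
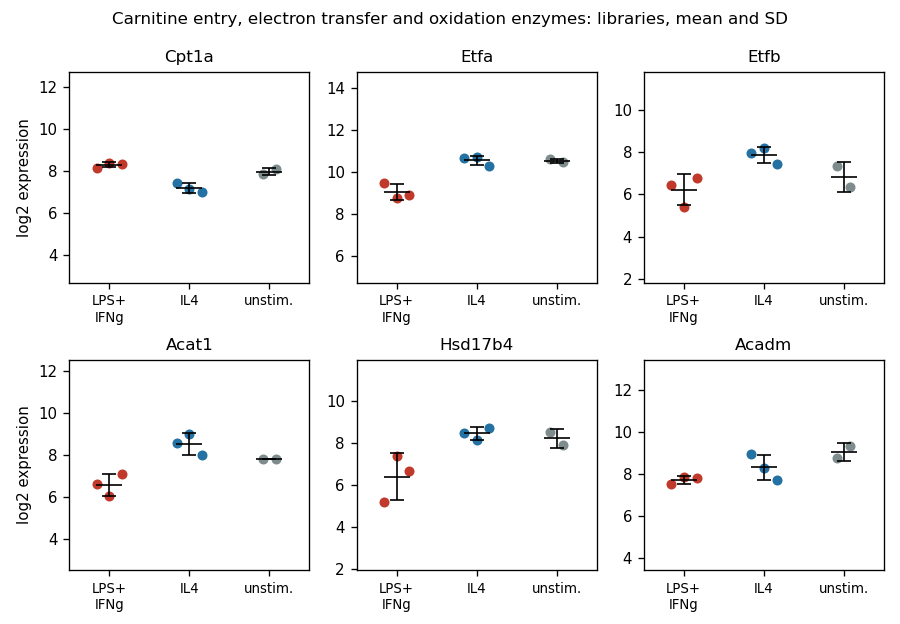
Log2 expression of Cpt1a, Etfa, Etfb, Acat1, Hsd17b4 and Acadm by group (LPS plus IFNg, IL4, unstimulated from left to right); points are libraries, and bars are the mean and SD (n = 3, 3 and 2). The 3 LPS plus IFNg libraries lie below all others for Etfa, Acat1 and Hsd17b4 and above all others for Cpt1a. Each panel's axis spans 10 log2 units.

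The electron transfer flavoprotein hands electrons from the dehydrogenases to the respiratory chain. Etfa, its alpha subunit, was at 9.46, 8.77 and 8.90 in LPS plus IFNg, 10.65, 10.68 and 10.29 in IL4, and 10.59 and 10.44 in unstimulated macrophages. The LPS plus IFNg libraries were the lowest by a clear margin, while IL4 and unstimulated overlapped. In log2 terms Etfa fell by 1.47 ± 0.25 against unstimulated (SE; adjusted p = 0.0134 by limma), which is 2.78-fold lower with a 95% interval of 1.85 to 4.18. Against IL4 it fell by 1.5 ± 0.23 (adjusted p = 0.00557 by limma), or 2.82-fold lower with an interval of 1.96 to 4.07. The IL4 minus unstimulated difference was 0.02, with an interval of -0.57 to 0.61 and either sign when leaving out 1 library. The fall against unstimulated did not pass without unstimulated replicate 1 (adjusted p = 0.0888), without replicate 2 (0.0837) or when IL4 was kept out of the fit (0.0524), and both falls shrank to -0.02 and -0.05 under the ribosomal levelling.

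Etfb, the beta subunit, was at 6.46, 5.39 and 6.80 in LPS plus IFNg, 7.98, 8.21 and 7.45 in IL4, and 7.35 and 6.34 in unstimulated macrophages. The LPS plus IFNg libraries lay below all IL4 ones and overlapped with unstimulated, while the IL4 libraries lay above both unstimulated ones. IL4 minus unstimulated was 1.03 ± 0.51 (SE; adjusted p = 0.486 by limma). LPS plus IFNg minus unstimulated was -0.63 ± 0.51 (adjusted p = 0.594 by limma). The difference against IL4, -1.66 ± 0.46 (SE; adjusted p = 0.0581 by limma), passed when genes with means under 5 were left out (adjusted p = 0.0157). The ribosomal levelling adds 1.45 to differences against IL4, which takes up most of this one. Etfdh, the dehydrogenase that receives electrons from the flavoprotein, was at 3.27, 0 and 1.71 in LPS plus IFNg, 0, 5.26 and 5.50 in IL4, and 1.35 and 0 in unstimulated macrophages. It was listed at 0 in a library of each group, and no difference could be told from the spread.

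The auxiliary enzymes prepare double bonds of unsaturated fatty acids for the cycle, and none passed. The share of all genes that passed was 0.514% to 6.96% per comparison and direction. Ech1, a dienoyl-CoA isomerase, was at 6.15, 5.64 and 4.90 in LPS plus IFNg, 7.42, 6.50 and 6.84 in IL4, and 4.79 and 6.41 in unstimulated macrophages. The IL4 libraries were the highest without overlap, with differences of 1.32 ± 0.62 (SE; adjusted p = 0.465 by limma) for IL4 minus unstimulated and -1.36 ± 0.55 (adjusted p = 0.18 by limma) for LPS plus IFNg minus IL4, which turned to 0.0942 under the ribosomal levelling. Decr1, the dienoyl-CoA reductase, was at 4.66, 5.73 and 5.69 in LPS plus IFNg, 5.54, 6.57 and 5.65 in IL4, and 5.72 and 5.74 in unstimulated macrophages. The isomerase gene Eci1, listed as Dci, was at 4.74, 5.62 and 5.94 in LPS plus IFNg, 3.90, 5.26 and 0 in IL4, and 5.61 and 5.56 in unstimulated macrophages. Eci2, listed as Peci, was at 7.16, 6.05 and 6.10 in LPS plus IFNg, 7.18, 4.19 and 6.21 in IL4, and 6.92 and 6.45 in unstimulated macrophages. The IL4 values of both isomerase genes spread more widely than those of the other groups.

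The peroxisome shortens very long and branched chains with its own enzymes. Hsd17b4, the peroxisomal bifunctional enzyme, was at 5.18, 7.37 and 6.69 in LPS plus IFNg, 8.5, 8.13 and 8.74 in IL4, and 8.55 and 7.89 in unstimulated macrophages. The LPS plus IFNg libraries were the lowest and the most spread. In log2 terms Hsd17b4 fell by 2.05 ± 0.54 against IL4 (SE; adjusted p = 0.0498 by limma), which is 4.13-fold lower with a 95% interval of 1.71 to 9.96. Against unstimulated, the difference of -1.81 ± 0.61 did not pass (adjusted p = 0.141 by limma). The call against IL4 held only without LPS plus IFNg replicate 2 among the 8 leave-outs; without each of the others in turn it was lost, at adjusted p-values up to 0.124, and under the housekeeping and ribosomal levellings it was lost at 0.0694 and 0.354.

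Acox3, the oxidase for branched chains, was at 7.31, 6.34 and 7.19 in LPS plus IFNg, 5.95, 6.89 and 6.72 in IL4, and 7.48 and 7.23 in unstimulated macrophages. Acaa1a, the peroxisomal thiolase, was at 7.07, 7.11 and 6.83 in LPS plus IFNg, 6.36, 6.21 and 6.93 in IL4, and 7.18 and 6.94 in unstimulated macrophages. For both genes the IL4 libraries were below the unstimulated ones without overlap, by -0.83 for Acox3 (adjusted p = 0.492 by limma) and -0.56 for Acaa1a (adjusted p = 0.524 by limma), and neither passed.

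Markers of other cell types were read beside these changes, since in bulk RNA fewer cells of a type and less RNA per cell cannot be told apart. Over all genes, 3.72% rose and 4.25% fell with LPS plus IFNg against unstimulated, and 5.91% rose and 6.96% fell against IL4. Neutrophil markers (7 of the 8 named are in the table) summed to 6.96 to 7.80 on the log2 scale in LPS plus IFNg, 9.35 to 10.38 in IL4 and 10.6 to 10.7 in unstimulated macrophages, and 2 of the 7 fell in each comparison with LPS plus IFNg, where Mpo was listed at 0. Dendritic cell markers (7 tested) summed to 6.68 to 7.63 in LPS plus IFNg, 10 to 10.48 in IL4 and 8.52 to 8.70 in unstimulated macrophages, with Flt3 and Zbtb46 listed at 0 in LPS plus IFNg and Ccr7, Xcr1 and Cd209a at 0 in both other groups. The dendritic markers did not move together: with LPS plus IFNg, 1 rose (Ccr7) and 1 fell (Itgax, which macrophages also express) against unstimulated, and 1 rose (Ccr7) and 2 fell (Itgax and Zbtb46) against IL4. Itgax alone, at 6.19 to 7.04 in LPS plus IFNg, 9.96 to 10.47 in IL4 and 8.51 and 8.58 in unstimulated macrophages, made up most of the dendritic sum. Fibroblast markers (5 tested) summed to 10.23 to 11.21 in LPS plus IFNg, 10.14 to 10.71 in IL4 and 11.20 to 11.61 in unstimulated macrophages, with none at 0 throughout a group. The neutrophil sum was lowest in LPS plus IFNg, the group in which Etfa, Acat1 and Hsd17b4 were lowest, and the part of these cell types in those differences was not tested.

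Genes around the pathway were counted from 3 lists. Of 15 genes of fatty acid uptake and storage, 0 rose and 3 fell in LPS plus IFNg against unstimulated macrophages, 1 rose and 4 fell against IL4, and 0 passed for IL4 against unstimulated. Over all genes the shares were 3.72% and 4.25%, 5.91% and 6.96%, and 0.514% and 0.793% in that order. Fabp4, a fatty acid binding protein, was at 8.44, 7.86 and 7.87 in LPS plus IFNg, 10.28, 10.46 and 10.68 in IL4, and 11.08 and 11.60 in unstimulated macrophages, in 3 bands without overlap. Fabp4 fell by 3.29 ± 0.26 (SE; adjusted p = 0.00118 by limma) against unstimulated and fell by 2.41 ± 0.24 (adjusted p = 0.00103 by limma) against IL4, and both calls held without any single library and under both levellings.

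Cd36, a fatty acid and lipoprotein receptor, was at 12.15, 11.44 and 11.69 in LPS plus IFNg, 13.15, 12.96 and 13.07 in IL4, and 12.63 and 12.46 in unstimulated macrophages. It fell by 1.30 ± 0.22 (SE; adjusted p = 0.00978 by limma) against IL4, a call that held without any single library, while the difference turned to 0.15 under the ribosomal levelling. Lpl, the lipoprotein lipase, fell by 1.56 against IL4 (adjusted p = 0.0149 by limma), and the call was lost without IL4 replicate 1 (0.0537) and under the ribosomal levelling, where the difference was -0.11 (0.803). Mgll, the monoglyceride lipase, fell by 2.23 against unstimulated (adjusted p = 0.0413 by limma) and fell by 1.72 against IL4 (adjusted p = 0.0495 by limma), and of the leave-outs both calls held only without IL4 replicate 2 or LPS plus IFNg replicate 3. Under the housekeeping levelling the Mgll differences did not pass (adjusted p = 0.0796 against unstimulated and 0.0955 against IL4 by limma), and under the ribosomal one they were -0.78 (0.272) and -0.27 (0.671). Plin2, a lipid droplet coat protein, fell by 1.16 against unstimulated (adjusted p = 0.031 by limma); of the leave-outs the call held only without IL4 replicate 2 or 3 or LPS plus IFNg replicate 3, it was lost under the housekeeping levelling (0.132), and the difference turned to 0.29 under the ribosomal levelling. Lipe, the hormone-sensitive lipase, was at 5.38, 3.54 and 4.67 in LPS plus IFNg, listed at 0 in all IL4 libraries, and at 2.45 and 5.01 in unstimulated macrophages. Its call was lost without IL4 replicate 1 or LPS plus IFNg replicate 1 or 3 (adjusted p up to 0.0536).

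Of 41 further enzymes of fatty acid, propionate and ketone body oxidation, 38 had differing values. In LPS plus IFNg macrophages 1 rose and 0 fell against unstimulated, 1 rose and 3 fell against IL4, and 0 passed for IL4 against unstimulated. The matching shares of all genes were 3.72% and 4.25%, 5.91% and 6.96%, and 0.514% and 0.793%. Pcca, a subunit of propionyl-CoA carboxylase, which handles the last 3 carbons of odd chains, was at 4.58, 5.95 and 6.04 in LPS plus IFNg, 4.55, 4.19 and 4.12 in IL4, and 0.20 and 0.62 in unstimulated macrophages. It rose by 5.11 ± 0.80 against unstimulated (SE; adjusted p = 0.00993 by limma), and the call held without any single library. With the replicate block it was lost (adjusted p = 0.0595 by limma), and Pcca was not in the fit with means under 5 left out. IL4 minus unstimulated was 3.87 without overlap and did not pass (adjusted p = 0.0803 by limma). Those that fell against IL4 were Amacr, Pecr and Oxct1. Amacr, the racemase of branched chains, was listed at 0 in every library of LPS plus IFNg, against 4.12, 3.52 and 2.56 in IL4 and 0.35 and 0 in unstimulated macrophages. Amacr was thus clearly above 0 in IL4 alone, at a low level, with no call against unstimulated. Its call between LPS plus IFNg and IL4 held without any single library. Its low mean kept it out of the fits that left out genes with low values. Pecr, a peroxisomal enoyl-CoA reductase, was likewise listed at 0 with LPS plus IFNg, against 4.85, 4.94 and 3.47 in IL4 and 3.94 and 1.58 in unstimulated macrophages; its call was lost without LPS plus IFNg replicate 2 or 3 (adjusted p up to 0.0533). Oxct1, which activates ketone bodies, fell by 1.96 (adjusted p = 0.0396 by limma), a call that of the leave-outs held only without IL4 replicate 3 or LPS plus IFNg replicate 1 and was lost under the ribosomal levelling, at -0.51 (0.375).

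Phyh, the peroxisomal enzyme that starts phytanic acid breakdown, was at 6.93, 7.56 and 7.75 in LPS plus IFNg, 5.69, 4.19 and 5.65 in IL4, and 7.12 and 6.86 in unstimulated macrophages. The IL4 libraries were the lowest without overlap. Phyh was higher in LPS plus IFNg than in IL4 by 2.24 ± 0.48 (SE; adjusted p = 0.0221 by limma), and the call was lost without LPS plus IFNg replicate 2 or 3 or either unstimulated library (adjusted p up to 0.0771).

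Of 18 regulators, 16 had differing values. With LPS plus IFNg 0 rose and 1 fell against unstimulated, and 2 rose and 1 fell against IL4. With IL4, 1 rose and 0 fell against unstimulated. The shares of all genes, in the same order, were 3.72% and 4.25%, 5.91% and 6.96%, and 0.514% and 0.793%. Pparg, the lipid-sensing nuclear receptor, was at 4.24, 3.38 and 0 in LPS plus IFNg, 8.31, 8.27 and 8.37 in IL4, and 7.44 and 7.61 in unstimulated macrophages, in 3 bands without overlap. It fell by 5.78 ± 1.0 against IL4 (SE; adjusted p = 0.01 by limma), which held without any single library. The fall of 4.98 ± 1.12 against unstimulated (adjusted p = 0.0388 by limma) held without LPS plus IFNg replicate 1 or 3 and was lost without each of the other 6 libraries in turn.

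Ppargc1b, a coactivator known to promote mitochondrial oxidation, was at 7.82, 7.64 and 6.75 in LPS plus IFNg, 8.63, 7.88 and 9.34 in IL4, and 5.84 and 4.60 in unstimulated macrophages. Its IL4 libraries were the highest without overlap. The LPS plus IFNg libraries also lay above both unstimulated ones, though that difference did not pass. The rise of 3.39 ± 0.57 in IL4 against unstimulated (SE; adjusted p = 0.0434 by limma) held without IL4 replicate 2 and was lost without each of the other 7 libraries in turn (adjusted p up to 0.212). Esrra, the estrogen-related receptor alpha, was at 7.78, 7.87 and 8.19 in LPS plus IFNg, 7.09, 6.83 and 6.44 in IL4, and 6.99 and 6.63 in unstimulated macrophages. The rise of 1.16 ± 0.26 against IL4 (SE; adjusted p = 0.0269 by limma) was lost without IL4 replicate 2 or 3 or any LPS plus IFNg library (adjusted p up to 0.0873). Nr1h3, the oxysterol receptor LXR alpha, was at 7.6, 8.16 and 6.87 in LPS plus IFNg, 5.66, 5.55 and 4.56 in IL4, and 6.22 and 5.01 in unstimulated macrophages. Its rise of 2.28 ± 0.53 against IL4 (SE; adjusted p = 0.0306 by limma) held only without LPS plus IFNg replicate 3 or unstimulated replicate 1. Both genes were highest in LPS plus IFNg without overlap. Ppara, the receptor best known for driving these genes in liver, was listed at 0 in 6 of the 8 libraries and reached at most 0.75.

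**Figure D5:**
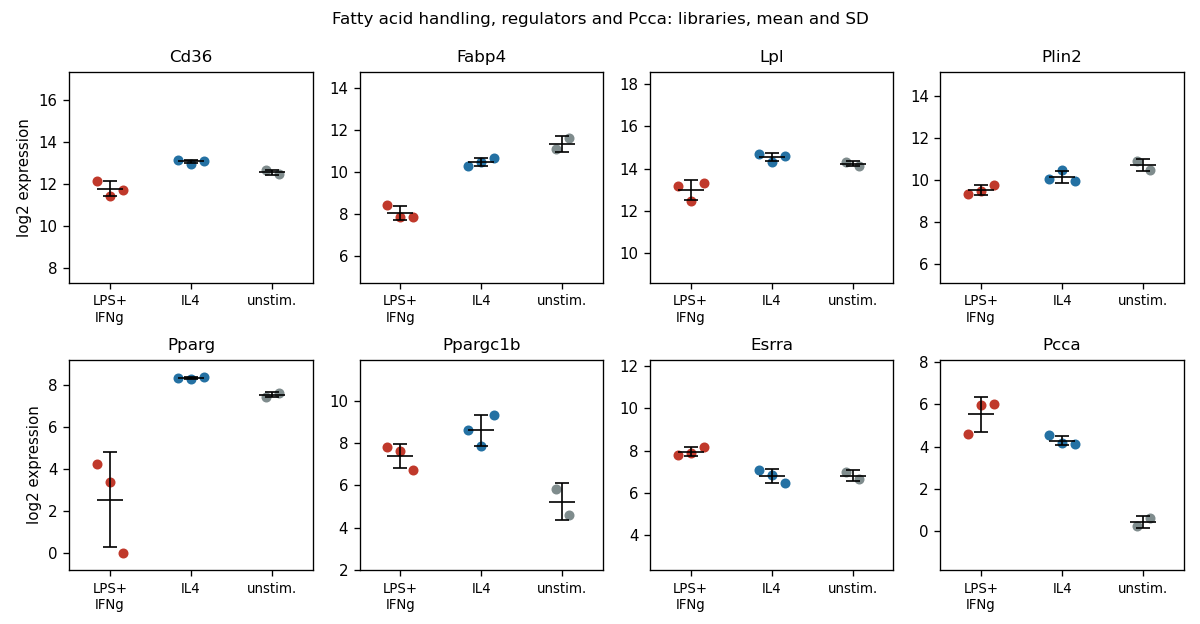
Log2 expression of genes of fatty acid handling, of regulators and of Pcca by group (LPS plus IFNg, IL4, unstimulated from left to right); points are libraries, and bars are the mean and SD (n = 3, 3 and 2). Fabp4 and Pparg lie lowest in LPS plus IFNg, and Pcca lies at 0.20 and 0.62 in the unstimulated libraries. Each panel's axis spans 10 log2 units.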

How the data were processed

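Log2 expression values for 8 libraries of bone-marrow derived macrophages were read from 1 table that the authors deposited, quantile normalised per the table's name. Per the submitters' processing notes, TopHat was used with build mm9; its version, the counting tool and the treatment of zero counts were not given in the sources used here. Since quantile normalisation gives libraries like distributions, an overall change in RNA amount can be hidden.

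The table has 20259 rows, of which 1 has no gene symbol and was left out. Genes with 1 value in all libraries (6643) were left out; the other 13615 entered the test. All 8 libraries were fitted with group means in limma 3.58.1 (R 4.3.3), with an intensity trend, 5 residual and 2.31 prior degrees of freedom; tests were two-sided, with Benjamini-Hochberg adjustment over all genes tested. The fit was also run on simulated normal values, with known changes set only in genes with a mean of at least 5. Those values lacked the exact zeros of the real libraries, so the run does not show how the test performs at low levels. Groups came from the labels. Groups are called not overlapping where all libraries of one lie above all of the other.

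The members and lists were chosen with earlier results of these data known. Every member is named; from the other lists up to 3 members past the test, by size of change, were to be named, and Cd36, Lpl, Oxct1 and Ppara were added after their values were seen. No fold is given where a group was listed at 0 throughout. Alternatives were other levellings, filters, damping of low values, values under 0 set to 0, library weights, no trend, only the groups compared, the replicate block, a threshold of 0.01 and each library left out. Promoter windows came from RefSeq, GRCm38.p6, by symbol; those of Acat1, Crat, Decr1, Acaa2 and Hsd17b4, and mm9 sequence, were not used here.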

Additional observations from a re-analysis of the deposited data

How the results depend on the processing

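With 3, 3 and 2 libraries, differences of members at low levels had wide intervals, and depth is unknown. Counts of members past the test for IL4 against unstimulated, and the members higher in LPS plus IFNg, stayed within 1.5 times their values under the filters, damping, weights and leave-outs. For LPS plus IFNg against unstimulated, the members lower numbered 0 with only the 2 groups in the fit, 3 with genes in the lowest 0.25 by mean dropped, 3 with means under 5 left out (where 23 members remain), 0 at an adjusted p of 0.01, and 0 to 2 when leaving out 1 library. Against IL4 they numbered 5 with means under 5 left out and 1 at 0.01, where the members higher numbered 1; the members' median was -0.79 to -0.56 when leaving out 1 library, lowest without IL4 replicate 2.

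The housekeeping levelling gave members' medians of -0.0472 against unstimulated and -0.33 against IL4. It turned Acsl4 to 0.11, Acadl to 0.13, Hadhb to 0.13, Hadh to 0.0731, Echs1 to 0.24 and Acaa1a to 0.26 against unstimulated, and Acadl to 0.11 against IL4. The ribosomal levelling gave 9 members higher and 0 lower in each comparison with LPS plus IFNg, and medians of 1.09 against unstimulated and 0.88 against IL4. It turned Acadm to 0.14, Acsl4 to 1.24, Acadl to 1.27, Hadhb to 1.27, Hadh to 1.21, Echs1 to 1.37, Acaa1a to 1.39, Acadsb to 0.50, Crat to 0.51 and Acat1 to 0.23 against unstimulated, and Acsl4 to 1.20, Acadl to 1.31, Acadm to 0.86, Acadsb to 1.06, Hadhb to 0.56, Acaa2 to 0.0114 and Ech1 to 0.0942 against IL4. These turns follow from the shift that a levelling adds to every gene. Any member whose fall was smaller than the shift turned, and those named are examples. Hadha, Acaa2 and Etfb, at -1.02, -0.63 and -0.63 against unstimulated before levelling, also turned under the ribosomal one.

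Leaving out 1 library gave ranges that cross 0 for members near it. Against unstimulated they were -0.40 to 0.52 for Acsl5, -0.69 to 0.21 for Acadl, -0.60 to 0.11 for Hadh, -0.22 to 0.0475 for Echs1 and -0.18 to 0.0563 for Acaa1a. Against IL4 they were -0.64 to 0.25 for Acadl and -0.10 to 0.44 for Echs1. For IL4 against unstimulated, Etfa ranged over -0.0505 to 0.15.

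Same-numbered libraries showed no large shared deviation: the 7 same-numbered pairs had correlations of -0.08 to 0.07, with 0 over 0.1. In groups this small, and with no animals or cultures named, these values cannot show whether the samples were paired. With the replicate block, members past the test numbered 0 and 0 for IL4 against unstimulated, 1 and 1 for LPS plus IFNg against unstimulated, and 2 higher and 2 lower against IL4, where Hsd17b4 had an adjusted p of 0.098; the block turned Echs1 to 0.0155 against unstimulated. Over all genes the block gave 7 higher and 1 lower for IL4 against unstimulated, in place of 70 and 108, 255 and 256 for LPS plus IFNg against unstimulated, in place of 506 and 579, and 629 and 691 against IL4, in place of 804 and 948.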
